A study of Homo sapiens with 4 samples.

Results

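The genes described here are 10 NF-kB-responsive inflammatory genes: the CXC chemokine genes CXCL1, CXCL2, CXCL3, CXCL5, CXCL6 and CXCL8, the cytokine genes IL6 and IL1B, and the feedback inhibitor genes NFKBIA and TNFAIP3. They were taken by name from 19821 protein-coding genes on the autosomes and X, and all 10 were found in the RefSeq annotation. For each gene, peaks were collected over the gene record and 20 kb on either side, a stretch called the window below, and the length covered by peaks was summed for each library. The study profiled SK-Hep1, a cell line labelled as human hepatic adenocarcinoma, by ChIP-seq. H3K27ac, the acetylation of histone H3 at lysine 27, was profiled in cells carrying a control shRNA (shCon) and in cells carrying an shRNA against SMARCB1 (shSMARCB1), which encodes a shared subunit of SWI/SNF remodelling complexes. Cells stably expressing an shRNA had been selected with puromycin. SMARCB1 itself was profiled in another library, whose labels name no shRNA, and the input library was not analysed here. The shRNA sequence, the number of hairpins and whether the cells were a clone or a pool are not stated in the labels, and the peak lists hold no measure of how far SMARCB1 was depleted.

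Each group had 1 library, so the differences below have no replicate check and were not tested. The control H3K27ac library held 13235203 tags and the knockdown library 10203310, a ratio of 1.30, and the depth of the SMARCB1 library is not stated in its file. Over the 15587 protein-coding genes with H3K27ac in the window in both libraries, the median ratio of covered length, control over knockdown, was 1.13, and 77.6% of these genes had more in the control. A ratio of 1.13 is therefore the level against which the ratios of single genes are read, and the part that depth plays in it was not tested. Over all protein-coding genes, 69.7% had H3K27ac on the gene record in the control and 68.5% in the knockdown. Of 10 hepatocyte marker genes, 3 had H3K27ac on the gene record in the control and 2 in the knockdown, and ALB, APOB, TTR and HNF4A had none within 20 kb in either library. Of 8 endothelial markers, 4 were marked in the control and 5 in the knockdown, and of 5 mesenchymal markers 5 and 4. Leukocyte markers, which stand here for the other main producers of these cytokines, were marked at 6 of 8 genes in the control and 4 of 8 in the knockdown, with 22777 and 19991 bp on PTPRC, and none within 20 kb of CD3E.

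NF-kB is a family of dimeric transcription factors held in the cytoplasm by IkB proteins. Signals from receptors for tumour necrosis factor, interleukin-1 or bacterial products lead to phosphorylation and destruction of IkB, and the freed dimers enter the nucleus and bind kappa B sites in promoters and enhancers. Among the targets are chemokines that attract neutrophils, cytokines such as interleukin-6, and the pathway's own inhibitors, IkB-alpha from NFKBIA and the ubiquitin-editing enzyme A20 from TNFAIP3. H3K27ac marks active promoters and enhancers, so its peaks show which of these genes lie in acetylated chromatin, not how much RNA they make.

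The promoters of 5 CXC genes are shown first, because they resemble each other and carry the same kappa B match although their H3K27ac differs. RefSeq promoter sequences (GRCh38.p14) were found for all 10 genes. The 200 bases that end just before the gene start are printed 5′ to 3′ on the strand of the gene, with matches to the kappa B consensus in capitals. CXCL1, CXCL2 and CXCL3 lay wholly in H3K27ac in both libraries over these bases, CXCL6 had 49 bp in control cells and 0 bp after knockdown, and CXCL5 had 0 bp in both.
CXCL1, chr4:73869193-73869392, plus strand: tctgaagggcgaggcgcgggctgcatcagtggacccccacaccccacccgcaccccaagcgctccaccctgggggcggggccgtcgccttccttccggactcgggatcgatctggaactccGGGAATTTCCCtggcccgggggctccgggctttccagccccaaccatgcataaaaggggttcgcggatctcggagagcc
CXCL2, chr4:74099196-74099395, minus strand: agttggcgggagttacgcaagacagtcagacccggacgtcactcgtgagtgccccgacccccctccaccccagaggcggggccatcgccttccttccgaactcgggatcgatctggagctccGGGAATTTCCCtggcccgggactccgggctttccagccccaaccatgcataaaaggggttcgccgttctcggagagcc
CXCL3, chr4:74038690-74038889, minus strand: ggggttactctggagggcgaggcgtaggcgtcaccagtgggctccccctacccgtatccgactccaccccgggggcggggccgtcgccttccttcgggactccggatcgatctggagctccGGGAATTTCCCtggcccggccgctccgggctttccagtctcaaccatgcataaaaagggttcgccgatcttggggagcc
CXCL5, chr4:73998678-73998877, minus strand: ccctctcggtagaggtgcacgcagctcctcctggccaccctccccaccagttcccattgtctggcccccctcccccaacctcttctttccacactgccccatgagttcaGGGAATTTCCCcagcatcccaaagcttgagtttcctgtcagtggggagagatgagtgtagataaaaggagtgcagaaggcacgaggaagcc
CXCL6, chr4:73836478-73836677, plus strand: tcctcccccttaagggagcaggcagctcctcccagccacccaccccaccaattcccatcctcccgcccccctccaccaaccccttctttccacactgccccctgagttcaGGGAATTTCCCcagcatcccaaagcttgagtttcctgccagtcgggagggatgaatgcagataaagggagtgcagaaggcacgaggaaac

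The sequences fall into a pair and a trio. Over the 250 bases before the start, identity was taken as the share of alignment columns with identical bases, gap columns included. It was 85.3% for CXCL5 and CXCL6, 81.4% for CXCL1 and CXCL3, 73.4% for CXCL2 and CXCL3, and 70.1% for CXCL1 and CXCL2. Gap columns lower these values: CXCL1 and CXCL2 had 197 identical bases in 281 columns, and CXCL5 and CXCL6 had 214 in 251. The order of the values therefore does not rank the pairs by identity of paired bases. Between pair and trio, identity was 52.3 to 53.9%, and CXCL8 had 43.9 to 47.9% with any of the others. The longest identical stretch between any of these promoters was 45 bases, between CXCL5 and CXCL6. The labels state 100-base reads. Sequence downstream of the starts was not aligned, and how reads map between these genes was not tested.

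The kappa B consensus, searched on both strands of those 250 bases, was present in 8 of the 10 promoters: CXCL1, CXCL2, CXCL3, CXCL5, CXCL6, IL6, NFKBIA and TNFAIP3. It was found in 5.68% of 15812 protein-coding promoters of the same length. In the 5 CXC promoters shown, the match was GGGAATTTCC on the gene's strand, and because the next base is also C, a match on the other strand overlapped it at all but 1 base. It began 78 to 91 bases before the start (positions −79, −78, −79, −91 and −90 in CXCL1, CXCL2, CXCL3, CXCL5 and CXCL6). The looser pattern of GGG, any 5 bases and CC, which contains the consensus, was in 9 of 10 members and in 63.4% of all promoters. CXCL8 had this looser pattern only, as GGGATGGGCC from −117, and IL1B had neither. The CXCL8 promoter also holds TGGAATTTCC, which differs from the consensus at its first base only and so was not counted. An AP-1 match (TGANTCA) lay in CXCL8 alone among the members (5.05% of all promoters), a C/EBP match (TTGCNNAA) in CXCL2, IL6 and IL1B (7.24%), and TATAAA in CXCL8 and NFKBIA (9.25%). These letters describe the windows searched and do not show binding.

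The promoters of TNFAIP3 and IL1B are shown beside them as the extremes among the other members. TNFAIP3 carries 2 kappa B matches, GGGACTTTCC and GGGGATTTCC when read on the other strand, from −67 and −55, and IL1B carries none. Both stretches lay wholly in H3K27ac in both libraries.
TNFAIP3, chr6:137867059-137867258, plus strand: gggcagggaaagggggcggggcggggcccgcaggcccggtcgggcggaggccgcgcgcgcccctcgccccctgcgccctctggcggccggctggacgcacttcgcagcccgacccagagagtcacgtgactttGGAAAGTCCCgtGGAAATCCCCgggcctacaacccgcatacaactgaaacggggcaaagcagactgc
IL1B, chr2:112836780-112836979, minus strand: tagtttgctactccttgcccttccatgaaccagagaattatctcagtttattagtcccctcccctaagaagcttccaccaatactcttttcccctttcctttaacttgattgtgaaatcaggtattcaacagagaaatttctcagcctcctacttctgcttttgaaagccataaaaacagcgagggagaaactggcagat

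The first question was whether these genes kept H3K27ac when SMARCB1 was targeted. In both libraries 9 of the 10 genes had H3K27ac in the window, against 78.6% of all protein-coding genes, and CXCL5 was the exception, with none in either library, as was found at 18.5% of all genes. The gene start itself lay inside a peak of both libraries for 8 members (59.2% of 15812 genes with a listed start), and CXCL6 was the single member whose start was marked in the control only (2.02%), with 0 in the knockdown only (0.594%). Most acetylated sequence in the control was found again in the knockdown. At the median member 80.3% of the control length was covered in both libraries, from 0% at CXCL6 to 100% at CXCL1.

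Covered length in the window was called different where the libraries differed 1.5-fold or more. No member was called lower in the knockdown, against a background of 10.8% of 16162 genes, and 1 member, CXCL6, was called higher, against 3.53%. The median ratio of the 9 marked members, control over knockdown, was 1.14, beside 1.13 over all genes. By any margin, 6 members had more in the control and 3, CXCL1, CXCL3 and CXCL6, had more in the knockdown, though CXCL1 had more in the control with a window of 50 kb (353 bp) and CXCL6 with 5 kb (626 bp). IL1B lay just outside the threshold with a ratio of 1.47 and CXCL6 just inside it, with 1.64 times as much in the knockdown.

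**Figure D1:**
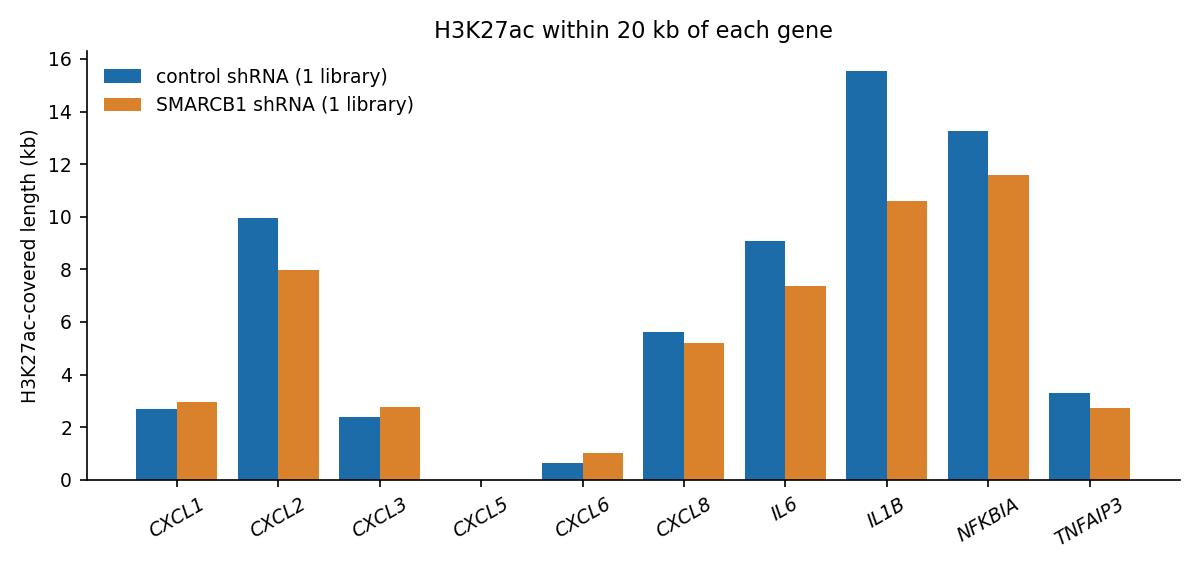
Length covered by H3K27ac peaks (kb) over each gene record and 20 kb on either side, in the control shRNA library (blue) and the SMARCB1 shRNA library (orange), 1 library each and so without error bars. IL1B and NFKBIA had the longest coverage, CXCL5 had none, and the largest difference was at IL1B, with 15534 bp in control cells and 10588 bp after knockdown.

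The chemokine genes lie together on chromosome 4 in an interval of 398.627 kb, from 20 kb before CXCL8 to 20 kb beyond CXCL2 (chr4:73720569-74119195, hg38). Their products bind CXCR2, and CXCL6 and CXCL8 also bind CXCR1, to recruit neutrophils. The interval held 8 control peaks over 21280 bp and 11 knockdown peaks over 20292 bp, a ratio of 1.05, and no SMARCB1 peak. Coverage of the cluster was thus closer to equal than the genome-wide median, while its peaks were more divided in the knockdown. The windows of CXCL1 and CXCL6 overlap by 9368 bp and those of CXCL3 and CXCL5 by 2089 bp, and no peak lay in either overlap. Of other protein-coding genes, PF4V1, PF4 and PPBP have records inside these windows, and the record of MTHFD2L reaches into the CXCL2 window.

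**Figure D2:**
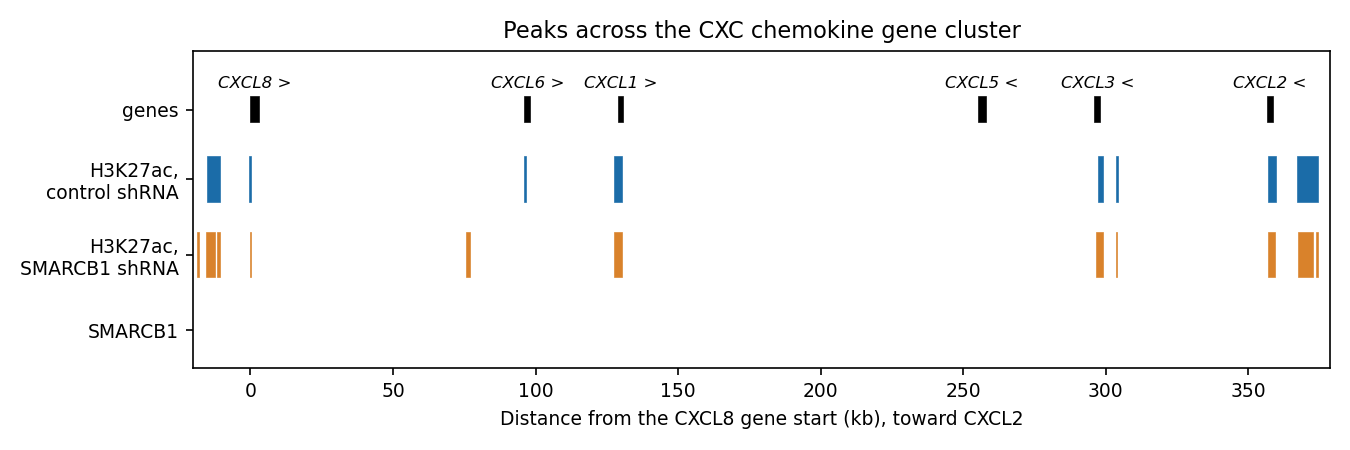
Peaks across the CXC chemokine cluster, drawn to scale by distance (kb) from the CXCL8 gene start, with gene records (black, arrowheads for direction), control H3K27ac peaks (blue), knockdown H3K27ac peaks (orange) and an empty row for SMARCB1. Peaks over CXCL8, CXCL1, CXCL3 and CXCL2 recur in both libraries, the CXCL6 start has a peak in the control only, and CXCL5 has none.

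CXCL1, CXCL2 and CXCL3 encode the closely related GRO chemokines, and their starts were acetylated over similar lengths in both libraries. At CXCL1 (chr4:73869393-73871308) the window held a single peak over the gene start, of 2701 bp in control cells and 2974 bp after knockdown. The knockdown peak contained the whole control peak and was longer on both sides, reaching 1409 bp upstream and 1564 bp downstream of the start, against 1297 and 1403 bp. CXCL3 (chr4:74036589-74038689) had a start peak of 1903 bp in control cells and 2278 bp after knockdown. Its upstream reach was 937 and 906 bp, while the downstream edge lay 965 bp into the gene in the control and 1371 bp after knockdown. A minimum-sized peak of 501 bp stood between −6.10 and −5.60 kb of the CXCL3 start in the control and between −5.95 and −5.45 kb in the knockdown, beyond a lncRNA gene, LOC105377275, that begins 256 bp from CXCL3.

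CXCL2 (chr4:74097040-74099195) had 9942 bp in control cells and 7984 bp after knockdown, a ratio of 1.25. Its start peak measured 2747 and 2265 bp and differed on the upstream side, where it reached 1162 bp in control cells and 764 bp after knockdown. The rest lay in a region upstream, a single control peak of 7195 bp from −15.8 to −8.61 kb of the start. In the knockdown the same region was divided into peaks of 5218 and 501 bp, and nothing in the CXCL2 window was covered in the knockdown alone. The far end of this region reaches the record of MTHFD2L, a mitochondrial folate enzyme gene, so it cannot be assigned to CXCL2 by position. CXCL1, CXCL2 and CXCL3 all lay under the 1.5-fold threshold.

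CXCL8, the gene for interleukin-8, had a narrow start peak and a wider upstream region. Across the window (chr4:73720569-73763716) it had 5607 bp in control cells and 5185 bp after knockdown. The peak over the start was 798 bp wide in the control and 501 bp, the smallest width in these lists' member windows, in the knockdown, a ratio of 1.59. A control peak of 4809 bp from −15.4 to −10.6 kb was matched in the knockdown by peaks of 2985 and 918 bp. The knockdown added a peak of 781 bp from −18.8 to −18.0 kb that had no counterpart in the control, close to the record of the lncRNA gene INKILN. In total the control covered 422 bp more, a ratio of 1.08, which became 1.61 with peaks of at least 1 kb only and 0.912 with peaks within 1 kb merged.

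CXCL6 and CXCL5 are the promoter pair with identical bases in 85.3% of alignment columns, and they were the least acetylated members. At CXCL6 (chr4:73836678-73838760), which encodes granulocyte chemotactic protein 2, the control had a single peak of 626 bp at chr4:73836629-73837254, from 49 bp upstream to 576 bp downstream of the start. The knockdown had no peak there. Its single peak in the window, of 1370 bp at chr4:73816337-73817706, lay from −20.3 to −19.0 kb and crosses the window edge, so that 1029 bp were counted. The call of CXCL6 as higher in the knockdown comes from this distal peak, and within 5 kb of the gene the lengths were 626 bp in control cells and 0 bp after knockdown. CXCL5 (chr4:73995642-73998677), the gene for epithelial neutrophil-activating peptide, had no peak in its window in either library, and the nearest lay 39047 bp away in the control and 38641 bp after knockdown. The platelet chemokine genes PPBP and PF4, which lie inside the CXCL5 window, were also without H3K27ac within 20 kb.

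The cytokine genes IL6 and IL1B differed from each other in how their peaks compared between libraries. IL1B, on chromosome 2 (chr2:112829751-112836779), encodes the precursor of interleukin-1 beta, which itself activates NF-kB. In the control a peak of 4731 bp reached from 1001 bp upstream of the start to 3729 bp into the gene, followed by a peak of 638 bp from 4.69 to 5.33 kb. In the knockdown the start peak was 1455 bp wide, reached 1091 bp upstream and stopped 363 bp into the gene, and the peak of 638 bp had no counterpart. On the gene record the covered length was 4368 bp in the control, or 62.1% of the gene, and 364 bp, or 5.18%, in the knockdown, a ratio of 12.0.

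The IL1B difference lay inside the gene and not at the promoter, whose 300 listed bases were covered in both libraries. Over all 9354 genes whose start lay in a peak of both libraries, the downstream reach of that peak was 1.5-fold or more shorter in the knockdown at 9.86% and longer at 1.77%. Among the 8 members it was shorter at 2, IL1B with a ratio of 10.3 and CXCL8 with 1.70, and longer at none. NFKBIA lay just under the threshold, with 1.47. A larger region beyond the 3' end of IL1B, from 16.9 to 28.9 kb of the start and 12052 bp wide in the control, was 10327 bp wide in the knockdown, and it overlaps the lncRNA gene LOC124907871. Because that region dominates the window, the ratio over 20 kb was 1.47 while the ratio within 5 kb of the gene was 3.69, from 5369 and 1455 bp. With peaks within 1 kb merged, the ratio over 20 kb was 1.56 and IL1B was called lower. This comparison of reach was chosen after the IL1B peaks had been seen.

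**Figure D3:**
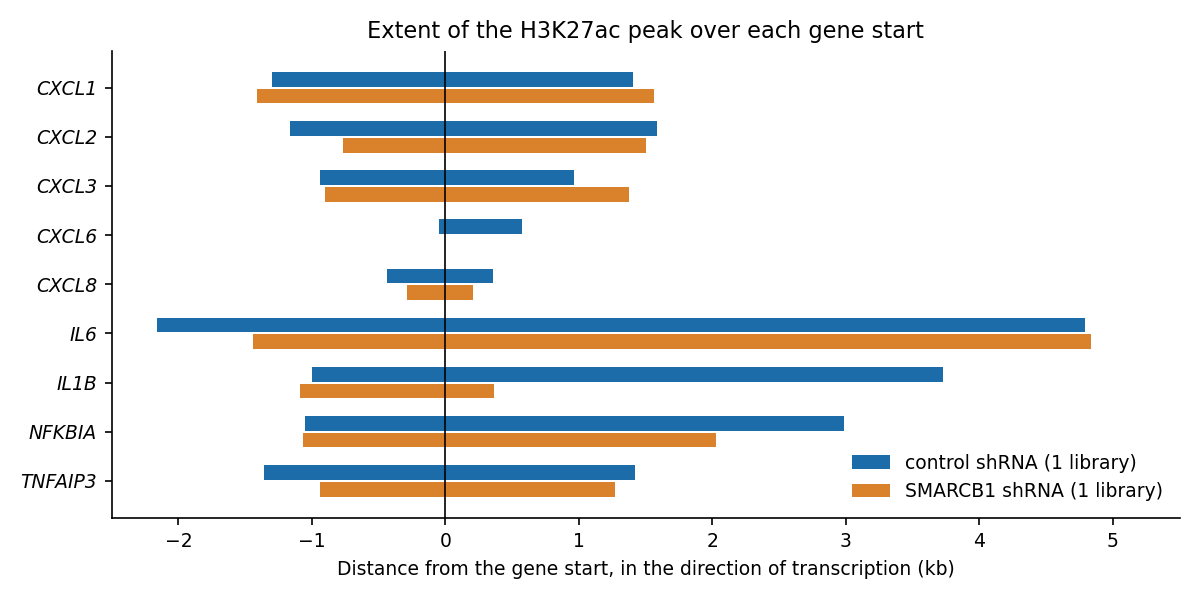
Extent of the H3K27ac peak over each gene start, in kb from the start in the direction of transcription, for the control library (blue) and the knockdown library (orange), 1 library each. The IL1B peak reaches 3729 bp downstream in the control and 363 bp after knockdown with nearly the same upstream edge, CXCL6 has a control peak only, and CXCL5, which has no peak, is not drawn.

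IL6 (chr7:22727200-22731998), the gene for interleukin-6, had the widest start peak of the members, 6948 bp in control cells and 6276 bp after knockdown. The peak covered 99.8% of the gene record in the control and 100% in the knockdown, and its downstream reach was 4787 and 4836 bp. The difference lay upstream, where the peak reached 2160 bp in control cells and 1439 bp after knockdown, over the antisense lncRNA gene IL6-AS1. A second region from −9.81 to −8.20 kb was 1618 bp wide in the control and 1106 bp after knockdown, and a control peak of 501 bp beyond the gene had no counterpart. In total IL6 had 9067 bp in control cells and 7382 bp after knockdown, a ratio of 1.23. IL1B and IL6 thus both had wide control peaks over the gene, of which the knockdown peak extended through the whole of IL6 and over the first 363 bp of IL1B.

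Both feedback inhibitor genes had their starts inside a peak of both libraries, as had 59.2% of genes with a listed start. Both had more in the control at 20 kb, as had 77.6% of genes marked in both libraries, whose median ratio was 1.13. NFKBIA (chr14:35401513-35404749) had 3 peaks in each library, of 4036, 4542 and 4675 bp in control cells and 3097, 4080 and 4418 bp after knockdown. The first covers the start, and the others lie upstream from −12.3 to −7.79 kb and from −18.4 to −13.8 kb in the control. The total was 13253 bp in control cells and 11595 bp after knockdown, a ratio of 1.14, with 98.1% of the knockdown length also covered in the control. On the gene record coverage was 92.2% in the control and 62.6% in the knockdown.

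TNFAIP3 (chr6:137866349-137883312) had a start peak of 2783 bp in control cells and 2212 bp after knockdown. A peak of 501 bp followed in each library, from 3.29 to 3.79 kb in the control and from 2.62 to 3.12 kb in the knockdown. These did not overlap and were 173 bp apart, so each was counted as present in a single library. The total was 3284 and 2713 bp, a ratio of 1.21, which turned to 0.758 with a window of 50 kb, and the lncRNA gene WAKMAR2 overlaps the start.

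**Figure D4:**
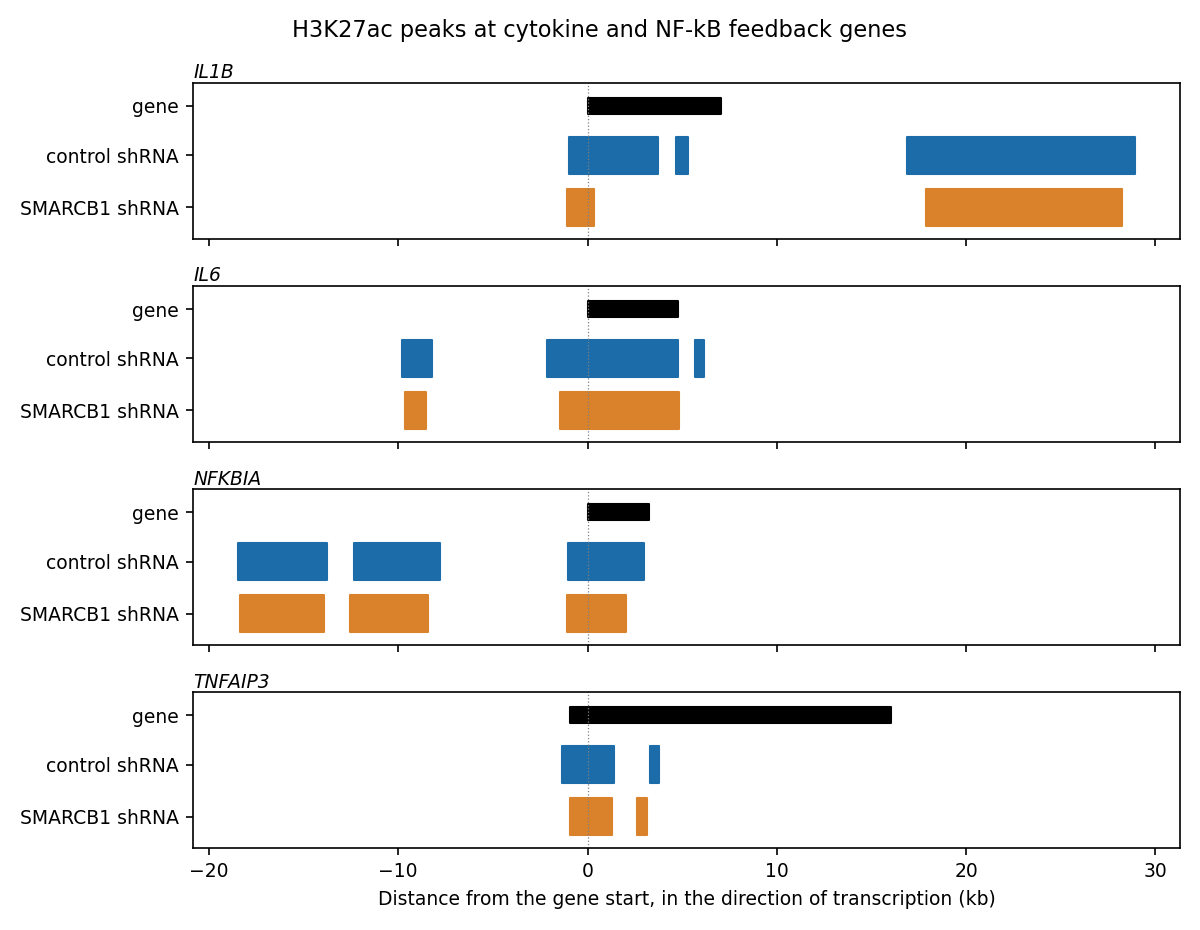
H3K27ac peaks at IL1B, IL6, NFKBIA and TNFAIP3, drawn to scale in kb from the gene start (dotted line) in the direction of transcription, with the gene record in black, control peaks in blue and knockdown peaks in orange. At IL1B the control start peak extends 3729 bp into the gene and the knockdown peak 363 bp. The regions upstream of NFKBIA and the peak over IL6 recur in both libraries.

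Set side by side, the start peaks of the members ran in the control from 6948 bp at IL6 through 4731 bp at IL1B, 4036 bp at NFKBIA, 2783 bp at TNFAIP3, 2747 bp at CXCL2, 2701 bp at CXCL1, 1903 bp at CXCL3 and 798 bp at CXCL8 to 626 bp at CXCL6. In the knockdown IL1B, at 1455 bp, stood behind all of these but CXCL8 and the unmarked CXCL6, and CXCL1 and CXCL3 stood ahead of CXCL2 and TNFAIP3. With 1 library per group, neighbours such as TNFAIP3, CXCL2 and CXCL1 in the control cannot be ordered beyond error. The median over 9354 genes was 2364 bp in control cells and 2135 bp after knockdown, a median ratio of 1.10. Width was 1.5-fold or more lower in the knockdown at 2 of 8 members, IL1B with 3.25 and CXCL8 with 1.59, against 7.61% of all these genes, and higher at none, against 0.909%. The upstream reach was lower past that threshold at CXCL2, CXCL8 and IL6, with ratios of 1.52, 1.52 and 1.501, against 14.6%, and higher at none, against 2.97%.

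Counted by peak, the member windows held 19 control and 20 knockdown peaks. In the control 4 had no overlapping knockdown peak, those at IL1B, CXCL6, IL6 and TNFAIP3 named above, against 17.7% of 35307 peaks genome-wide. In the knockdown 3 had no overlapping control peak, those upstream of CXCL8 and CXCL6 and inside TNFAIP3, against 12.2% of 34073. All of these but the CXCL6 distal peak were under 1 kb wide, from 501 to 781 bp, as were 84.7% of control-only and 84.0% of knockdown-only peaks over the genome. Within 5 kb of the gene, 3 of 9 marked members, IL1B, CXCL6 and CXCL8, were called lower in the knockdown, against 12.5% of genes, and none higher, against 3.7%. On the gene record the same 3 were called lower, against 15.2%, and none higher, against 4.65%.

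The second question was whether SMARCB1 peaks lay at these genes. None of the 10 windows held a SMARCB1 peak, whereas 28.2% of 19821 protein-coding genes had such a peak within 20 kb. The SMARCB1 list held 4453 peaks with a median width of 500 bp. The control and knockdown H3K27ac lists held 35307 and 34073. A missing peak in this shorter list does not show that SMARCB1 is absent. The distance from the gene record to the nearest SMARCB1 peak ran from 123.0 kb at IL1B to 837.6 kb at CXCL2, with a median of 529 kb against 97.1 kb over all genes. The 6 chemokine genes share a nearest peak (chr4:73258944-73259443, classed by the authors as promoter-TSS), so they are not independent in this. The nearest peaks to IL6 and IL1B were 281 and 123.0 kb away, in an intron and between genes by the authors' classes. NFKBIA and TNFAIP3 had theirs at 404 and 207 kb. No H3K27ac difference described above therefore lay in a window with a SMARCB1 peak of this list.

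The other genes of the pathway were taken as 70 genes in 6 lists. Of these, 57 had H3K27ac in both libraries and 12 in neither, against 78.6% and 18.5% of all protein-coding genes. Covered length was called lower in the knockdown at 4 of the marked genes and higher at 2, against the 10.8% and 3.53% given above, and the median ratio was 1.12. A SMARCB1 peak lay within 20 kb of 19 of the 70, against 28.2% of all protein-coding genes. All 14 signalling genes, 5 Rel subunit genes and 9 other inhibitor and feedback genes had H3K27ac in both libraries, beside that share of 78.6%. RELA, which encodes the main activating subunit, had 9711 bp in control cells and 10644 bp after knockdown, and NFKB1, which encodes the precursor of another subunit, had 4704 and 4764 bp. REL had 2646 and 2679 bp, RELB 4756 and 3510 bp, and NFKB2 10133 and 8844 bp. The ratios of RELA, NFKB1 and REL (0.912, 0.987 and 0.988) lie below the median of 1.13 over all genes, and those of RELB and NFKB2 (1.35 and 1.15) above it. Of 11 receptor genes, 6 were marked in both libraries and 5 in neither, against 78.6% and 18.5% of all protein-coding genes. The marked ones include IL6R and IL6ST, the receptor chains of interleukin-6, with 10853 and 9098 bp in control cells and 14993 and 7380 bp after knockdown, and IL1R1 and IL1RAP, those of interleukin-1, with 3638 and 8695 bp against 3864 and 7442 bp. TNFRSF1A and TLR3 were also marked. CXCR1 and CXCR2, the receptors of these chemokines, had none in the window in either library, nor had ACKR1, TLR2 and TLR4. Of 11 other CXC chemokine genes, 5 were marked in both libraries and 6, among them CXCL10 and CXCL12, in neither. The shares over all genes are again 78.6% and 18.5%.

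The genes called lower were MAP3K14, the kinase of the non-canonical pathway, with 49511 bp in control cells and 32266 bp after knockdown, CCL2, a monocyte chemokine, with 3432 and 0 bp, TNIP2, a partner of A20, with 4725 and 1703 bp, and MMP9, a matrix metalloproteinase, with 3212 and 1976 bp. The genes called higher were CSF2, the gene for GM-CSF, with 2498 and 4033 bp, and TAB1, an adaptor of the TAK1 kinase, with 2039 and 3272 bp. A SMARCB1 peak overlapped the gene record of 15 pathway genes, among them CD83, CHUK, IKBKG and IL1RAP, taken from these by alphabet, and the 15 had between 1565 and 20828 bp of H3K27ac within 20 kb in the control. The share of all genes with such an overlap was not computed, so the 15 cannot be read as many or few. Within 20 kb, 19 of the 70 pathway genes had a SMARCB1 peak, against 28.2% of all protein-coding genes. By covered length in both libraries, the protein-coding genes most like IL1B were KCTD1 (15575 and 10530 bp), ITGA2 (15674 and 10583 bp) and SLC38A1 (15338 and 10609 bp), a likeness over only 2 libraries.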

How the data were processed

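ChIP-seq libraries of SK-Hep1 cells were grouped by their titles. The submitters' processing notes name hg38 as the build and Bowtie2 and HOMER as tools, without versions. Per the file headers, the authors called each H3K27ac library with HOMER findPeaks in histone style against the same control input, with 500 bp candidate peaks at least 1000 bp apart, 4-fold enrichment required over input and surroundings, and neighbouring peaks stitched. The deposited score is 1 for every H3K27ac peak, so only position and width carry information. The SMARCB1 list has no header, and its caller settings are not stated.

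On each H3K27ac list 3 peaks outside the autosomes and X were left out. Positions are 1-based. Genes, gene starts and promoters came from RefSeq GRCh38.p14, which has the hg38 main chromosomes, without 153 protein-coding records on alternate or unplaced sequences. Starts were listed for 15812 protein-coding genes. Peaks within 20 kb were summed, an overlap of 1 bp counted as shared (checked with bedtools 2.31.1), and a 1.5-fold difference in length was called, also against 0 bp. The code was tested on simulated peaks. Promoters were aligned globally with Biopython 1.88 (match 2, mismatch −1, gap opening −3, extension −0.5). Python 3.11.15, NumPy 2.4.6, pandas 2.3.3 and matplotlib 3.10.9 were used.

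The members and gene lists were chosen with earlier results of these data known. All members are named. From the other pathway lists, up to 4 genes per direction are named by difference in length. So are 4 of the 15 whose record overlaps a SMARCB1 peak (a tie in distance, broken by alphabet). Also named are the protein-coding genes whose records overlap member windows and the 3 genes most like the member with the largest difference. The Rel subunit, receptor, CXCL10 and CXCL12 examples were named outside this rule, after their values were seen. Single libraries allow no test, and read depth was not equalised because only peak positions were used. Alternatives covered window, minimum width, merging, fold and overlap.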

Additional observations from a re-analysis of the deposited data

How the results depend on the processing

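No paired analysis was possible because each group had 1 library. With a window of 5 kb, 1 member (CXCL6) was marked in the control only, 3 were called lower and 0 higher in the knockdown, 1 knockdown peak had no counterpart, and CXCL6 turned to 626 bp (control minus knockdown, from −403 bp), since its distal knockdown peak is then outside. With 50 kb, 0 members were called higher, 7 of 31 control peaks had no counterpart, and 2 members turned, TNFAIP3 from 571 bp at 20 kb to −1206 bp and CXCL1 from −273 to 353 bp. With peaks of at least 1 kb only, 1 member (CXCL6) was marked in the knockdown only, 1 (CXCL8, with 1824 bp) was called lower, and 0 control peaks and 1 knockdown peak had no counterpart. With peaks within 1 kb merged, 1 member (IL1B, with 5908 bp) was called lower, CXCL8 went from 422 to −539 bp, and 2 control peaks had no counterpart. With a fold of 2, 0 members were called higher. With a peak of the other library within 1 kb taken as a counterpart, an alternative added after the data had been seen, 2 control peaks were without one. The count of members with a SMARCB1 peak was 0 at 5, 20 and 50 kb and for the higher-valued peaks. The tags behind each peak are not listed, so whether the lower depth of the knockdown library decides the narrow peaks was not tested.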
